A study of Danio rerio with 7 samples.

Results

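Dense windows of both Cdx4 and Sall4 were stretches of 100 kb of the zebrafish genome that held at least 5 Cdx4 peak centres together with at least 5 Sall4 peak centres. Every sequence of the assembly was divided into 100 kb windows from its first position, and 131 of 14378 windows (0.911%) met the rule. The members were the 986 Cdx4 and 1251 Sall4 peaks inside them, 2237 of the 14913 peaks in both lists. That was 19.1% of the 5166 Cdx4 peaks and 12.8% of the 9747 Sall4 peaks, in 13.1 Mb. The windows were chosen by their peak counts, so counts, spacing and overlap of the members are given as a description, while the histone mark domains played no part in the choice.

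The peaks came from chromatin immunoprecipitation and sequencing (ChIP-seq) of whole embryos of the wild-type strain Tu at bud stage, when gastrulation ends. Cdx4 and Sall4 carried a Myc tag and were both precipitated with an anti-Myc antibody, while H3K27ac and H3K4me3 were precipitated with antibodies against the modified histone. All libraries shared the strain, stage and tissue, and per the labels embryos were either uninjected or injected with mRNA at the 1-cell stage, with no statement of which held for a given library. Each of the 4 targets had 1 library and 1 deposited interval list, and the 3 input libraries were left unused. Whole embryos hold all cell types of the stage, so a peak and a domain at the same place are not shown to be in the same cells, and the peaks mark the tagged proteins rather than the endogenous ones. There is therefore no spread between libraries for any value below, and no test was run. Intervals printed with a share are exact (Clopper-Pearson) binomial 95% intervals. They cover counting error only, and they are too narrow as a measure of biological error because neighbouring peaks share their surroundings. Untagged embryos precipitated with the anti-Myc antibody were not part of the data used here, so a site bound by both factors and a site taken up by the antibody itself cannot be told apart. For sequencing depth and peak thresholds no value was given in the sources used here, and a site without a called domain is not shown to lack the mark.

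Cdx4, a caudal-family homeodomain protein, is a transcription factor known in vertebrate embryos for its part in patterning the posterior body, the Hox genes and the blood-forming mesoderm. Sall4 is a zinc finger factor of the spalt family, known from pluripotent cells and early embryos. Acetylation of histone H3 at lysine 27 (H3K27ac) is found at active enhancers and promoters, and trimethylation at lysine 4 (H3K4me3) mainly at promoters. Clusters of binding sites of several factors are often seen around genes that control development. No annotation of the assembly of these lists was used here, so no gene was assigned to a window, and regions are named by their position.

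The windows were spread over the genome, and most of them stood at or just above the threshold for Cdx4 but not for Sall4. They lay on all 25 assembled chromosomes, 127 in number, and on unplaced scaffolds, which held 4. Chromosome 23 held the most with 9 windows (2.01% of its windows), and chromosome 10 held 1. A window held between 5 and 26 Cdx4 peaks with a median of 6, and between 5 and 20 Sall4 peaks with a median of 9. Sall4 peaks outnumbered Cdx4 peaks in 87 windows, Cdx4 peaks outnumbered Sall4 peaks in 26, and 18 held equal numbers. Exactly 5 Cdx4 peaks were found in 45 windows and exactly 5 Sall4 peaks in 9, while 18 windows held at least 10 of each.

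**Figure D1:**
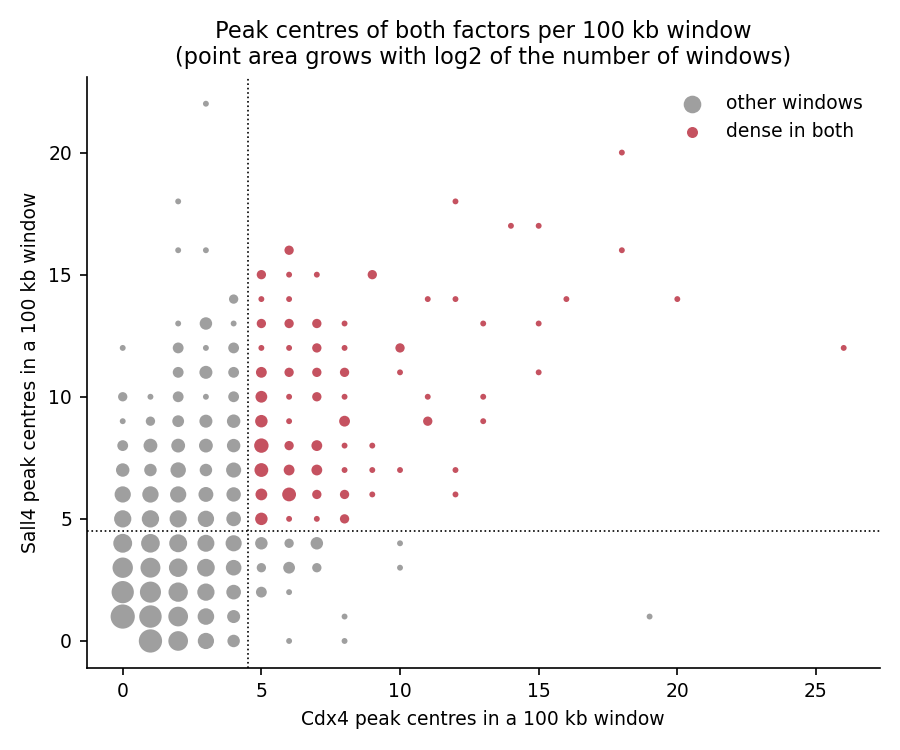
Number of Sall4 peak centres (vertical axis) against number of Cdx4 peak centres (horizontal axis) in 100 kb windows with at least 1 peak, where a point stands for all windows with that pair of counts and its area grows with log2 of their number. The dotted lines mark the threshold of 5, and the 131 dense windows (red) reach 26 Cdx4 and 20 Sall4 centres, with 45 of them at exactly 5 Cdx4 centres.

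The plot of peak centres per window has no empty band at the threshold, so the windows just outside it are given once. Next to the 45 windows with exactly 5 Cdx4 peaks stood 60 windows with 4 Cdx4 and at least 5 Sall4 peaks. Both sets had a median of 2 H3K27ac domains and 2 H3K4me3 domains, and 70.2% and 73.8% of their Cdx4 peaks overlapped a Sall4 peak. H3K27ac domains held 34.2% of the Cdx4 peaks just inside and 25.4% just outside. On the Sall4 side, 9 windows had exactly 5 Sall4 peaks and 13 had 4 beside at least 5 Cdx4 peaks. In these, 46.3% of the Cdx4 peaks just inside the threshold overlapped a Sall4 peak, and 42.7% just outside it. H3K4me3 domains held 5.56% of the 54 Cdx4 peaks just inside and 22.0% of the 82 just outside, with medians of 1 and 3 H3K4me3 domains a window. These shares come from few peaks in few windows, and the difference was not tested.

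Members were packed closely within a window. The median distance from a Cdx4 member to the nearest other Cdx4 peak was 1479 bp (quartiles 258.5 and 4292.8 bp), against 28232 bp for Cdx4 peaks outside the windows. For Sall4 the medians were 1759 bp inside and 7851 bp outside. Distances are between peak centres, and the shorter ones inside follow from the rule. Another peak of the same list lay within 5 kb of 77.6% of Cdx4 and 81.2% of Sall4 members. A window was nevertheless not filled by 1 tight cluster. From the first to the last Cdx4 member a window spanned a median of 46766 bp, with a median widest gap of 20752 bp, and for Sall4 the span was 55148 bp and the widest gap 21159 bp.

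The tightest packing was found in a few short stretches. When peaks of both lists were joined wherever neighbouring centres lay within 500 bp, members fell into 1239 clumps, of which 603 were a single peak and 9 held 6 or more. Both factors were present in 593 of these clumps (47.9%), against 17.6% of the clumps outside the windows. The rule favours this difference, since it asks for many peaks of both factors and overlapping peaks count toward both thresholds. The clump with the most peaks covered 3013 bp of chromosome 23 (37024101 to 37027113) and held 8 Cdx4 and 8 Sall4 peaks, 14 of them in H3K27ac. The next, with 3 Cdx4 and 4 Sall4 peaks, covered 818 bp of chromosome 18 (36366713 to 36367530), and 5 of its peaks were in H3K27ac. Peaks of 1 list that overlap each other may be 1 site called more than once. There were 58 such Cdx4 members (5.88%), against 1.89% of the Cdx4 peaks outside the windows. For Sall4 there were 16 (1.28%), against 0.918% outside. Such peaks add to the counts of a window, and with each overlapping set counted as 1 site 126 windows met the rule.

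Most Cdx4 members were also Sall4 sites when any overlap counted, but not clearly so under a stricter definition. A peak is called shared when it overlapped a peak of the other list by at least 1 bp, and single-factor when it did not. Of the Cdx4 members 642 (65.1%, 62.0 to 68.1%) were shared, against 45.5% of the whole list and 40.9% of the peaks outside the windows. Of the Sall4 members 621 (49.6%, 46.8 to 52.4%) were shared, against 23.8% of the whole list and 20.0% outside. A shared site adds to both counts of a window, so these shares are part of how the windows were chosen. With single-factor peaks alone counted, 9 windows would have met the threshold. The dense windows held 27.3% of all shared Cdx4 peaks. The shares of members depended on the definition. When 50 bp or more had to coincide, 48.4% of Cdx4 members (45.2 to 51.5%) and 37.7% of Sall4 members qualified. When centres within 500 bp of each other were enough, it was 78.3% and 61.6%.

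Windows that were dense in 1 factor only had a large shared part in the other factor. In the 360 windows dense in Sall4 only, where Sall4 sites were many and Cdx4 sites at most 4, 73.1% of Cdx4 peaks and 21.1% of Sall4 peaks were shared. In the 30 windows dense in Cdx4 only, 30.7% of Cdx4 peaks and 65.2% of Sall4 peaks were. In each class the factor with fewer peaks had the larger shared part. A shared site counts about once in each list, so this order follows from the peak numbers that define the classes. Among dense windows of both, the shared part of the Cdx4 members was 70.2% with 5 Cdx4 peaks in a window and 56.1% with 12 or more, and that of the Sall4 members was 40.0% and 61.6%. Which factor had the larger share again follows from the peak numbers of these windows.

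The shared part differed from window to window. More than 50% of the Cdx4 members were shared in 100 of the 131 windows, and all of them in 20. The opposite case was the window from 43100001 to 43200000 on chromosome 19, picked here because it alone had no shared Cdx4 member. Its 7 Cdx4 peaks lay within 3652 bp, the shortest Cdx4 span of any window, and 6 of them were in H3K27ac. Its 6 Sall4 peaks lay within 12401 bp and 3 were in H3K27ac. The window held 7 H3K27ac and 4 H3K4me3 domains. Its peaks in H3K27ac, 6 of Cdx4 and 3 of Sall4, lay within 2725 bp of each other and none was shared. Whether they were in the same domain was not examined. The window from 11700001 to 11800000 on chromosome 12 alone had all its Sall4 members shared, 6 of 6, along with 6 of its 9 Cdx4 peaks. These windows on chromosomes 19 and 12 were chosen after their values were seen.

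Every peak of both lists was 100 bp wide, so the centres of overlapping peaks are less than 100 bp apart by definition. Within that limit the centre of a shared Cdx4 member lay a median of 30 bp from that of its Sall4 peak (quartiles 13.2 and 51 bp), and 25 bp outside the windows. The centres were within 25 bp in 43.6% of shared Cdx4 members and 51.1% of shared Cdx4 peaks outside. The Sall4 centre was at the higher coordinate in 349 pairs and at the lower in 288. Single-factor members often had the other factor close by, as the rule favours with at least 5 peaks of each factor in a window. A Cdx4 member without an overlapping Sall4 peak lay a median of 1140.5 bp from the nearest one, and 37.8% had one within 500 bp, against 10.1% of such peaks outside the windows. A Sall4 member without Cdx4 lay a median of 2802 bp from the nearest Cdx4 peak, with 23.7% within 500 bp, against 5.78% outside. In windows dense in Sall4 only the medians were 2497 bp for such Cdx4 peaks and 13673 bp for such Sall4 peaks. The lower quartile of these Cdx4 peaks was 182.5 bp, against 204.8 bp for the Cdx4 members without Sall4.

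H3K27ac domains were numerous in the dense windows. The windows held 508 H3K27ac domains, 11.0% of the list, in 0.911% of all windows. A window held a median of 3 (range 0 to 30), and the mean of 3.88 compares with 0.32 over all windows. The medians were 1 in windows dense in Sall4 only, 2 in windows dense in Cdx4 only and 0 in other windows with a peak. These differences between classes of window were not tested. H3K4me3 domains were less concentrated, at 291 domains, 1.5% of the list, with a median of 2 a window (range 0 to 13) and a mean of 2.22 against 1.35 over all windows. Windows dense in Cdx4 only had a higher mean of 3, with the same median of 2. The mean was 1.64 in windows dense in Sall4 only and 1.76 in other windows with a peak, and these H3K4me3 differences were not tested either.

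The acetylated domains were not only those under the peaks. Of the 508 H3K27ac domains 255 (50.2%) overlapped a Cdx4 peak, 221 (43.5%) a Sall4 peak, 184 (36.2%) both and 216 (42.5%) neither. Outside the dense windows 64.5% of H3K27ac domains overlapped neither factor, a difference that the rule favours because it selects windows with many peaks. In windows dense in Sall4 only the share was 41.5%, near that of the dense windows. Domains that overlapped neither numbered 1.65 per dense window, 0.528 per window dense in Sall4 only, 1.23 per window dense in Cdx4 only and 0.136 per window with no peak. The mean in dense windows was 1.18 without the 8 windows that held 10 or more H3K27ac domains. In 47 dense windows there was no such domain. The additional acetylated domains were thus unevenly spread.

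The marks were combined in most windows. Domains of both marks were present in 89 windows, H3K27ac alone in 34 and H3K4me3 alone in 6. These combinations are given for dense windows only. No H3K27ac domain lay in 8 of the 131 dense windows and in 131 of the 360 windows dense in Sall4 only. It was 7 of 30 in those dense in Cdx4 only and 3084 of the 4612 other windows with a peak. For H3K4me3 the numbers were 36, 126, 9 and 1674 in the same order. Inside the dense windows 16.1% of H3K27ac domains overlapped an H3K4me3 domain, against 25.5% outside and 13.8% in windows dense in Sall4 only. Seen from the other mark, 26.1% of H3K4me3 domains inside overlapped an H3K27ac domain, against 5.22% outside and 9.17% in windows dense in Sall4 only. Dense windows also held more H3K27ac domains to overlap, with a mean of 3.88 against 0.32 over all windows, and this difference in overlap was not tested. The H3K4me3 domains inside held a Cdx4 peak in 16.5% of cases, against 2.55% outside, a difference that the rule favours because it selects windows with many Cdx4 peaks.

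The windows with no domain of either mark were 2 in number. The window from 56800001 to 56900000 on chromosome 7 held 7 Cdx4 and 15 Sall4 peaks, with 4 of the Cdx4 peaks shared. The window from 24700001 to 24800000 on chromosome 19 held 7 Cdx4 and 11 Sall4 peaks, with 5 of the Cdx4 peaks shared. Many sites of both factors were called there without a called domain of either mark. At the other end, the window from 19800001 to 19900000 on chromosome 15, chosen after its count was seen, held 30 H3K27ac and 7 H3K4me3 domains with 7 Cdx4 and 6 Sall4 peaks, near the minimum of the rule.

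Cdx4 members were in H3K27ac domains about as often as other Cdx4 peaks. An H3K27ac domain overlapped 324 of 986 Cdx4 members (32.9%, 29.9 to 35.9%), against 30.6% of the whole Cdx4 list and 30.0% (28.6 to 31.4%) of the peaks outside the windows. For Sall4 it overlapped 265 of 1251 members (21.2%, 18.9 to 23.6%), against 12.6% of the whole list and 11.3% (10.6 to 12%) outside. Shared Sall4 members reached 30.3% and those without Cdx4 12.2%, where outside the windows the shares were 33.1% and 5.88%. In windows dense in Cdx4 only the share of all Sall4 peaks was 22.5% (14.3 to 32.6%), and in windows dense in Sall4 only 11.2%. With the Sall4 peaks outside weighted to the score groups and the sharing of the members, their share was 19.4%, and the part of sharing or score in the difference was not tested.

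**Figure D2:**
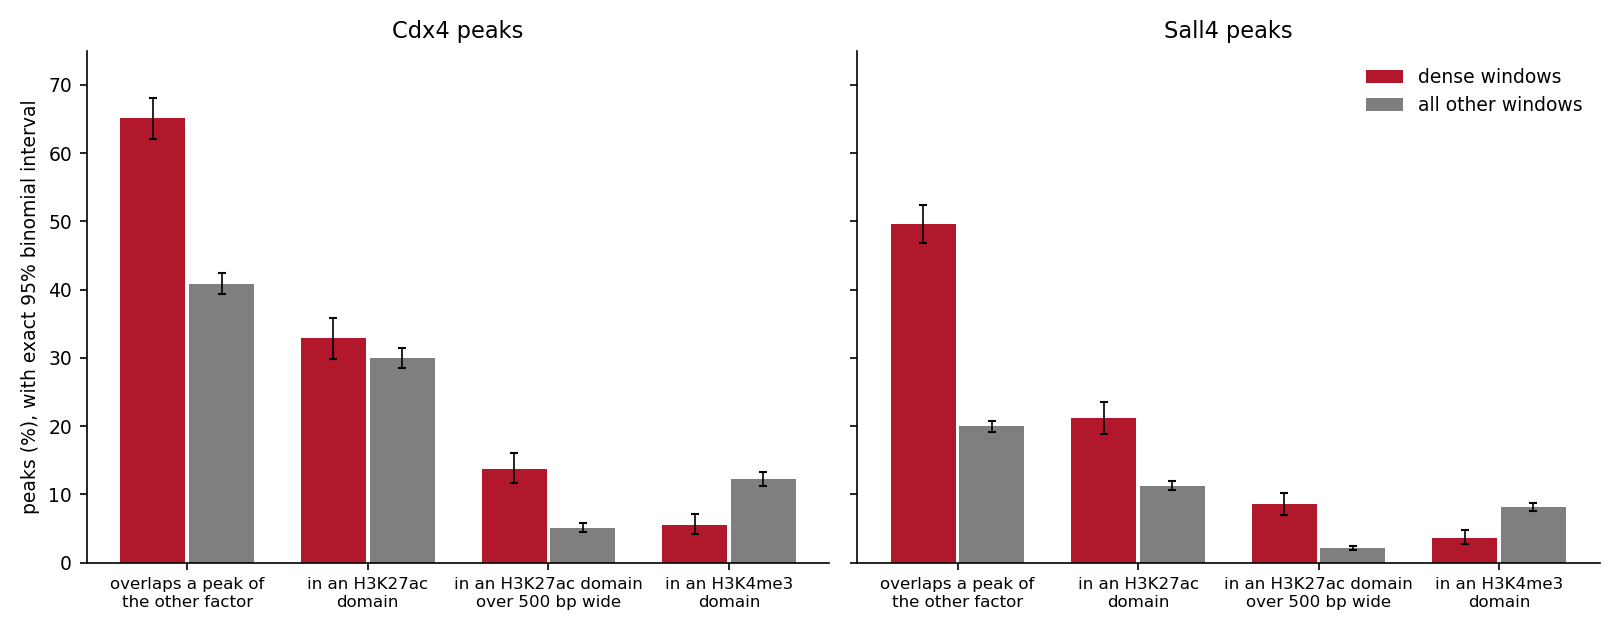
Percentage of Cdx4 peaks (left) and Sall4 peaks (right) overlapping the other factor, any H3K27ac domain, an H3K27ac domain over 500 bp wide or an H3K4me3 domain, in the 131 dense windows (red) and all other windows (grey), with exact binomial 95% intervals that cover counting error only. Cdx4 peaks in H3K27ac were 32.9% and 30.0%, while Cdx4 peaks in wide H3K27ac domains were 13.8% and 5.14%, and those in H3K4me3 5.58% and 12.2%.

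In the plot of shares, wide H3K27ac domains and H3K4me3 domains stand on opposite sides of the values elsewhere. The H3K27ac domains of the dense windows were more often wide, with 28.7% over 500 bp against 18.6% outside, although both had a median width of 399 bp. Such wide domains held 13.8% of Cdx4 members (11.7 to 16.1%), against 6.79% of the whole list and 5.14% outside. They held 8.55% of Sall4 members (7.06 to 10.2%), against 2.97% of the whole list and 2.14% outside. Peaks in the same domain are counted one by one in these shares. In windows dense in Sall4 only the shares were 5.71% and 2.32%, and in the smaller set dense in Cdx4 only 13.9% (9.41 to 19.4%) and 8.99% (3.96 to 16.9%). Without the 10 densest windows the members' shares were 11.5% and 7.19%. Those 10 windows were ranked by peaks, so windows with many H3K27ac domains stayed in, such as that on chromosome 15 with 30. The median number of domains over 500 bp per dense window was 0, so the wide domains were unevenly spread.

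Single-factor Cdx4 members had a larger share in wide domains than shared members or Sall4 members. Of these 344 members 35.5% (30.4 to 40.8%) were in any H3K27ac domain and 19.2% (15.2 to 23.8%) in a wide one, against 27.3% and 4.69% of single-factor Cdx4 peaks outside the windows. Without the 10 densest windows the share in wide domains was 16.2%, and in windows dense in Cdx4 only it was 14.3% (8.95 to 21.2%). Shared Cdx4 members reached 31.5% and 10.9%, against 34.0% and 5.79% outside. For any H3K27ac domain the single-factor share was thus the larger inside the windows, with overlapping intervals (27.9 to 35.2% for shared members), and the smaller outside. The single-factor share was also the larger in windows dense in Sall4 only, at 29.3% against 26.0% of shared Cdx4 peaks. It was the smaller in windows dense in Cdx4 only, at 28.6% against 32.3%. The order seen inside was thus not particular to the dense windows, and the difference between these orders was not tested.

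The share of Cdx4 peaks in H3K27ac spanned a narrower range across peak scores inside the windows than outside. The score is the authors' own value for a peak, its meaning is unknown, and it was used only to rank peaks within a list. Each whole list was divided by score into 4 groups of equal size. The top group held 39.0% of Cdx4 members and 40.1% of Sall4 members, and the bottom group 12.8% and 13.3%, so members ranked above their lists at large. From the top to the bottom group, 41.8%, 28.2%, 27.2% and 24.6% of Cdx4 members were in H3K27ac. The corresponding shares outside were 53.2%, 31.4%, 23.7% and 16.7%.

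**Figure D3:**
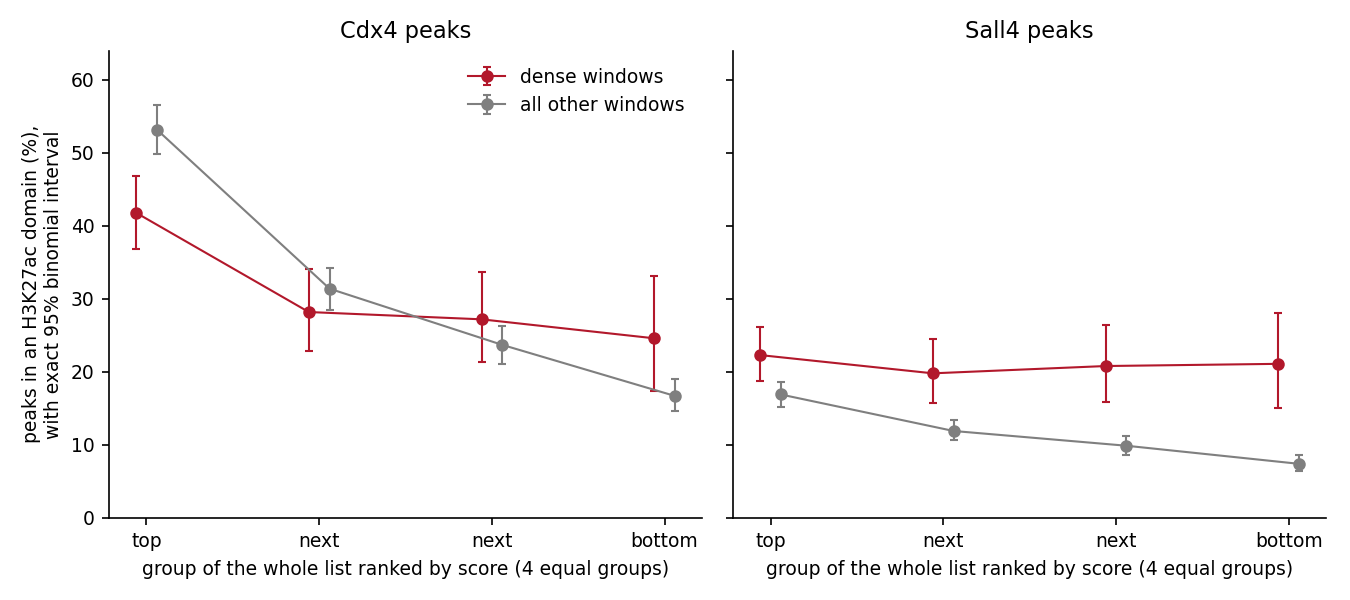
Percentage of Cdx4 peaks (left) and Sall4 peaks (right) in an H3K27ac domain by group of the whole list ranked by score, in the 131 dense windows (red) and all other windows (grey), with exact binomial 95% intervals for counting error. Cdx4 peaks of the top group reached 41.8% inside and 53.2% outside, and those of the bottom group 24.6% and 16.7%. Cdx4 intervals overlapped in all groups but the top one, and the crossing of the Cdx4 lines was not tested.

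At equal score the Cdx4 members did not stand above other peaks throughout. In the plot of H3K27ac share by score group the dense windows were lower in the top group (36.8 to 46.9% inside, 49.9 to 56.5% outside). In the bottom group the dense windows had the larger value, but the intervals overlapped (17.4 to 33.1% inside, 14.6 to 19% outside), as they did in both middle groups. With the Cdx4 peaks outside weighted to the score groups of the members, 36.4% were in H3K27ac, above the 32.9% of the members. The share of Sall4 members was between 19.8 and 22.3% in every group, while outside the share ran from 16.9% in the top group to 7.40% in the bottom group.

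A smaller share of members than of peaks elsewhere lay in H3K4me3 domains, a difference that was not tested. An H3K4me3 domain overlapped 55 Cdx4 members (5.58%, 4.23 to 7.20%), against 11.0% of the whole list and 12.2% outside the windows. It overlapped 46 Sall4 members (3.68%, 2.70 to 4.87%), against 7.58% of the whole list and 8.16% outside. The Cdx4 members in H3K4me3 were found in 29 windows, and 22 of the 55 in only 3. Without the 10 densest windows 3.43% of Cdx4 members and 2.82% of Sall4 members remained. Windows dense in Sall4 only were alike in this, at 4.71% of Cdx4 and 3.90% of Sall4 peaks, while those dense in Cdx4 only stood at 15.8% and 18.0%.

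Many members lay far from any called domain. More than 5 kb from every domain of either mark were 33.9% of Cdx4 members, against 43.5% of the whole list and 45.8% outside. For Sall4 it was 44.8% of members, against 60.7% of the whole list and 63.0% outside. Windows dense in Sall4 only, with fewer domains, had 47.7% of Cdx4 and 64.2% of Sall4 peaks this far away. In windows dense in Cdx4 only it was 41.6% of Cdx4 and 33.7% of Sall4 peaks, the latter below the share of the Sall4 members.

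The numbers of peaks and H3K27ac domains dropped at the edges of the windows. On the left and right neighbours of dense windows, themselves not dense in both, the mean number of Cdx4 peaks was 0.921 and 0.894, against 7.53 in the dense windows and 0.359 over all windows. For Sall4 it was 2.01 and 2.11, against 9.55 and 0.678. H3K27ac domains numbered 0.535 and 0.593 next door, against 3.88, and H3K4me3 domains 1.42 and 1.57, against 2.22. Of the 225 neighbouring windows 36 (16.0%) were dense in Sall4 only, against 2.50% of all windows, and 75 (33.3%) held no peak, against 64.3%.

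**Figure D4:**
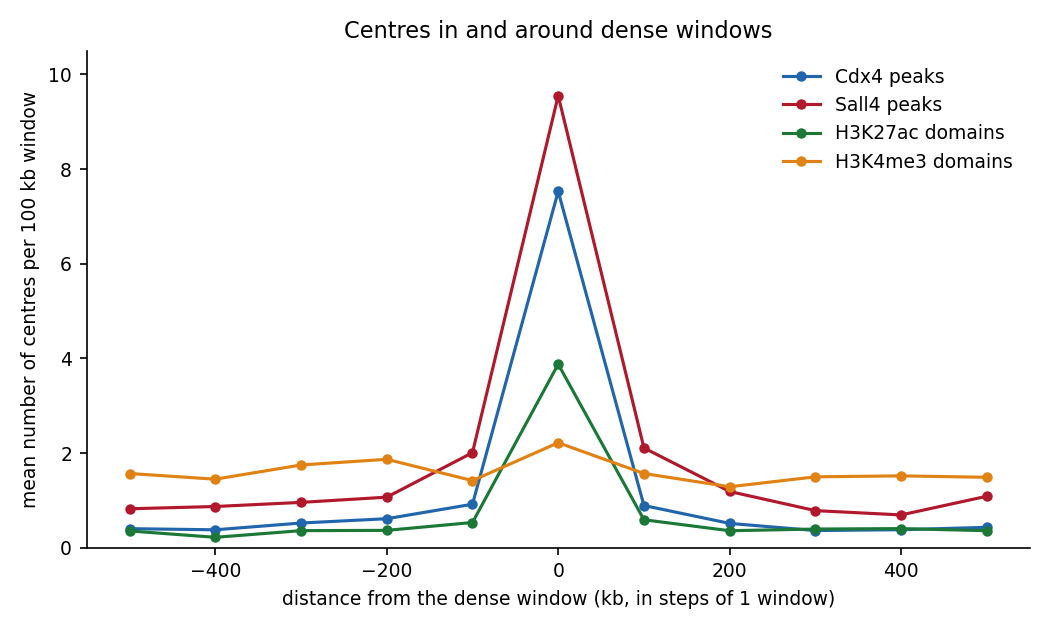
Mean number of Cdx4 peak, Sall4 peak, H3K27ac domain and H3K4me3 domain centres per 100 kb window (vertical axis) in dense windows and in windows up to 5 windows away that were not themselves dense in both factors (horizontal axis, in kb). All 4 lines have their highest point in the dense window, with means of 7.53 for Cdx4, 9.55 for Sall4, 3.88 for H3K27ac and 2.22 for H3K4me3, and the H3K4me3 line is the flattest.

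The plot of means by distance thus shows narrow maxima of peaks and H3K27ac against a nearly level line for H3K4me3. The maxima of peaks follow from the rule. Windows that were themselves dense were left out of the flanking means, which lowers these means for peaks by construction. Dense neighbours left out in this way held between 0 and 20 H3K27ac domains, so the H3K27ac means next door are affected too. At 2 windows away the Cdx4 means were 0.615 and 0.516 and the H3K27ac means 0.369 and 0.361, all above the means of 0.359 and 0.32 over all windows. From 3 to 5 windows away the H3K27ac means ran from 0.222 to 0.406, with no further fall with distance.

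Most dense windows stood alone. When neighbouring dense windows were joined, the 131 windows made 116 runs, of which 105 were a single window, 7 were pairs and 4 consisted of 3 windows. The joined runs held 26 windows. The median distance from a run to the nearest other run on its sequence was 32 windows.

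The 4 longest runs differed widely in their marks. On chromosome 3 the run from 20500001 to 20800000 held 45 Cdx4 and 38 Sall4 peaks, with 27 of the Cdx4 peaks shared and 17 in H3K27ac. It held 27 H3K27ac and 23 H3K4me3 domains, and its windows held 7, 20 and 18 Cdx4 peaks in turn. On chromosome 23 the run from 35000001 to 35300000 held 44 Cdx4 and 26 Sall4 peaks, 25 H3K27ac and 16 H3K4me3 domains, and 21 Cdx4 peaks were shared and 20 were in H3K27ac. Most of this came from its middle window, with 26 Cdx4 peaks, 20 H3K27ac domains and 13 H3K4me3 domains, and there 25 Cdx4 and 11 Sall4 peaks followed each other with gaps of at most 5 kb over 44181 bp. These runs on chromosomes 3 and 23 were rich in both marks.

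The other runs had fewer domains for their peaks. On chromosome 5 the run from 22200001 to 22500000 held 31 Cdx4 and 30 Sall4 peaks with 11 H3K27ac and 9 H3K4me3 domains, and 20 of its Cdx4 peaks were shared but 5 were in H3K27ac. Its later border between windows cut through a cluster, since the nearest centres on either side were 179 bp apart. On chromosome 19 the run from 24700001 to 25000000 held 17 Cdx4 and 25 Sall4 peaks with 4 H3K27ac and 2 H3K4me3 domains, and 11 of its Cdx4 peaks were shared and 2 in H3K27ac.

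**Figure D5:**
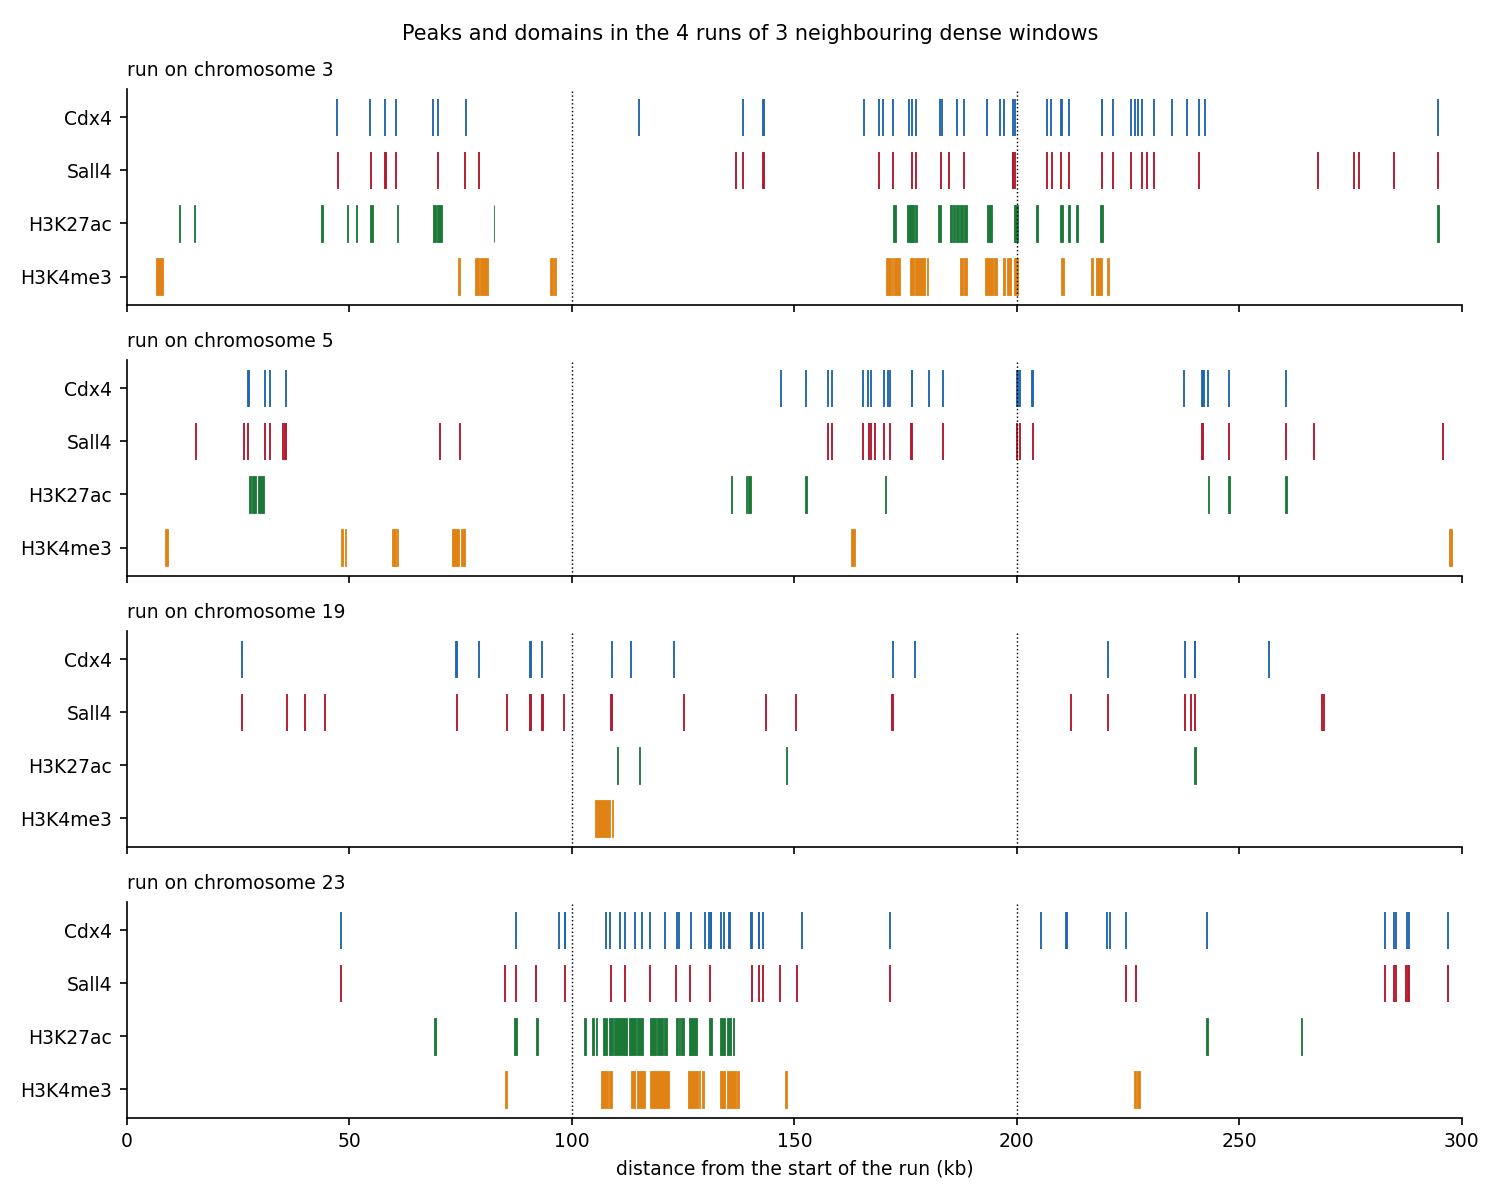
Positions of Cdx4 and Sall4 peaks and of domains of H3K27ac and H3K4me3 along the 4 runs of 3 neighbouring dense windows, with distance from the start of the run in kb on the horizontal axis, window borders as dotted lines, and each interval drawn to scale with a minimum line width. The runs on chromosomes 3 and 23 hold 27 and 25 H3K27ac domains, and those on chromosomes 5 and 19 hold 11 and 4.

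The map of the runs shows the same unevenness within a run, since peaks gathered in part of a window and long stretches held none. On chromosome 23 most H3K27ac and H3K4me3 domains lay within the same stretch as the Cdx4 peaks of the middle window. On chromosome 5 the Cdx4 and Sall4 peaks of the middle window lay largely where no domain was called.

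The windows with the highest summed peak counts were likewise mixed in their marks. The window from 35100001 to 35200000 on chromosome 23 held 26 Cdx4 and 12 Sall4 peaks, 18 of the Cdx4 peaks in H3K27ac and 10 in H3K4me3. On the same chromosome the window from 37000001 to 37100000 had the same sum, with 18 and 20 peaks, of which 11 Cdx4 and 12 Sall4 peaks were in H3K27ac, although it held only 8 H3K27ac domains. Next came the windows on chromosome 3 from 20600001 to 20700000 and from 20700001 to 20800000, with 9 of 20 and 6 of 18 Cdx4 peaks in H3K27ac. In these 4 windows between 33.3 and 69.2% of the Cdx4 peaks were in H3K27ac.

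Further down the ranking some windows had many peaks but few of them in H3K27ac. On chromosome 18 the window from 20500001 to 20600000 held 14 Cdx4 and 17 Sall4 peaks, 10 of the Cdx4 peaks shared, but only 1 domain of each mark, and none of its peaks was in H3K27ac. On chromosome 5 the window from 22300001 to 22400000 held 15 and 11 peaks, with 1 Cdx4 and no Sall4 peak in H3K27ac. On chromosome 13 the window from 5800001 to 5900000 held 15 and 17 peaks, with 3 of each in H3K27ac and 5 Cdx4 peaks shared. The windows on chromosomes 5 and 13 each held 5 H3K27ac domains, above the median of 3 in dense windows, so the mark itself was not scarce there. Most peaks of both factors in these windows lay outside called H3K27ac domains. That also held for members at large, of which 32.9% for Cdx4 and 21.2% for Sall4 were in such a domain.

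The rest of the 10 windows lay between these. Of the 16 Cdx4 peaks from 27100001 to 27200000 on chromosome 19, 8 were in H3K27ac, as were 4 of the 12 from 33400001 to 33500000 on chromosome 13. On chromosome 14 the window from 34200001 to 34300000 held 15 Cdx4 peaks, with 5 in H3K27ac and 5 in H3K4me3, and it held 11 H3K4me3 but 6 H3K27ac domains. Across all 131 windows the number of Cdx4 peaks and of H3K27ac domains had a Spearman correlation of 0.296, and 0.192 without the 10 densest windows, and for Sall4 peaks the values were 0.0401 and -0.0705. These describe windows of 1 set of libraries that were selected on the peak counts themselves, and they were weak.

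The 5 top-scoring members of each list were mostly shared, as were the members of the top score group at large. Of the 100 Cdx4 peaks with the highest scores 46 lay in dense windows, and of the 100 such Sall4 peaks 33. The windows held 19.1% and 12.8% of the whole lists. At least 1 Cdx4 member of the top score group was present in 121 windows, and at least 1 such Sall4 member in 126. The top group is 1 of 4 equal groups of a list, and windows held medians of 6 Cdx4 and 9 Sall4 peaks. Most windows would thus be likely to hold such a peak at these numbers alone, and no other windows were compared. The 5 top-scoring Cdx4 members all overlapped a Sall4 peak, and 1 of them was in H3K27ac. Of the 5 top-scoring Sall4 members 4 overlapped a Cdx4 peak, and 2 were in H3K27ac. With 5 peaks a list these counts say little beside the 32.9% and 21.2% of all members in H3K27ac and the 41.8% of Cdx4 members in the top score group. The same holds for sharing, where the top score group stood at 73.0% of Cdx4 and 64.9% of Sall4 members.

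The members with the highest score in each list overlapped each other, but only at their edges. On chromosome 20 the Cdx4 peak from 33284797 to 33284896 (score 763) overlapped the Sall4 peak from 33284886 to 33284985 (score 558). Their centres were 89 bp apart, above the upper quartile of 51 bp for shared Cdx4 members. The window held 11 Cdx4 and 14 Sall4 peaks. The Cdx4 peak lay 13599 bp from the nearest domain. The next Cdx4 members were those on chromosome 15 from 19834180 to 19834279 (score 617), inside H3K27ac, and on chromosome 2 from 20049308 to 20049407 (score 542), 293 bp from a domain. They were followed on chromosome 7 by the peak from 36389740 to 36389839 (score 522) and on chromosome 3 by that from 20740900 to 20740999 (score 496), the latter 20202 bp from any domain.

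The next Sall4 members likewise lay in, near or far from a domain of either mark. That on chromosome 21 from 39188941 to 39189040 (score 460) lay 260 bp from a domain and overlapped a Cdx4 peak. That on chromosome 24 from 13316494 to 13316593 (score 450) was in H3K27ac and overlapped a Cdx4 peak. That on chromosome 2 from 30112374 to 30112473 (score 425) was in H3K27ac with the nearest Cdx4 peak 4159 bp away, and that on chromosome 1 from 23588458 to 23588557 (score 417) lay 12143 bp from any domain.

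The widest H3K27ac domains in the dense windows differed in how many peaks they held. The widest, 6599 bp on chromosome 23 from 37024700 to 37031298, held 7 Cdx4 and 6 Sall4 peaks, overlapping the clump described above. A pair of domains on chromosome 21 lay almost end to end, and 1 of them, 4799 bp from 39194300 to 39199098, held no peak of either factor, while the other, 4099 bp from 39189300 to 39193398, held 1 Cdx4 and 2 Sall4 peaks. The domain of 4199 bp on chromosome 25 from 33951300 to 33955498 held 2 Cdx4 and 1 Sall4 peaks, as did that of 2799 bp on chromosome 23 from 35109500 to 35112298. The widest of these 5 thus held the most peaks and the next widest held none, so the number of peaks did not follow width throughout.

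The 5 widest H3K4me3 domains held few peaks. They were between 3099 and 3999 bp wide, and each held at most 2 Cdx4 and at most 2 Sall4 peaks. The widest, on chromosome 16 from 14763900 to 14767898, held 1 Cdx4 and 2 Sall4 peaks and overlapped 1 H3K27ac domain. That on chromosome 19 from 24805100 to 24808598, in the run poor in H3K27ac, held no peak and overlapped no H3K27ac domain. The others lay on chromosome 22 from 37020300 to 37023598, on chromosome 2 from 26647700 to 26650898 and on chromosome 17 from 8744700 to 8747798, and each overlapped H3K27ac.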

How the data were processed

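ChIP-seq of Cdx4, Sall4, H3K27ac and H3K4me3 was used, with 1 library per target. The authors deposited an interval list per target with a score per interval, of a scale not given in the sources used here. Names of factor peaks begin with GPS, a peak caller, per the deposited lists. The submitters' processing notes name CASAVA 1.4 and Bowtie 0.12.7 without roles. For peak thresholds, input use and depth nothing was given in the sources used here. Scaffold names carry the prefix Zv8, and positions follow the deposited lists, counted from 1.

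Each interval was assigned to the 100 kb window of its centre. The number of windows on a sequence came from the last position any list reached. Overlap meant at least 1 bp, and distances to domains ran from edge to edge. Wide H3K27ac domains exceeded 500 bp. Shares carry exact binomial 95% intervals, and no test was run. Scripts ran in Python 3.11.15 with scipy 1.17.1, pandas 2.3.3, numpy 2.4.6 and matplotlib 3.10.9, and the counting was checked on simulated data.

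The members, measures and named regions were chosen with earlier results of these data known. Named regions were the 10 windows with the highest summed counts (ties, which included the last place, broken by Cdx4 count and position), all runs of 3 or more windows, the 5 top-scoring members of each list, the 5 widest domains of each mark and the windows with no domain, apart from windows marked in the text. Alternatives covered the window grid and width, thresholds, overlap definition, domain width, scores and the densest windows. Gene assignment and sequences, which need an annotated genome of this assembly, were not used here.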

Additional observations from a re-analysis of the deposited data

How the results depend on the processing

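Of 134 values recomputed under 15 alternative settings, 99 stayed within the counting interval of the reported value, or within 1.5 times it for counts. With thresholds of 4 or 6 centres of each factor there were 224 and 82 windows in 192 and 75 runs, and with 6 the Sall4 overlap was 53.9% and the Cdx4 spacing 1088 bp. When single-factor peaks alone counted there were 9 windows in 9 runs, with medians of 6 H3K27ac and 3 H3K4me3 domains, 40.0% of Cdx4 and 31.4% of Sall4 members in H3K27ac and 4.96% of Sall4 members in H3K4me3. Windows of 50 kb gave a Sall4 overlap of 58.6% and a spacing of 1013 bp, and windows of 200 kb gave 43.6%, 2157 bp and a median of 3 H3K4me3 domains. A grid shifted by 50 kb put 5.11% of Sall4 members in H3K4me3. With only as many best-scoring Sall4 peaks as Cdx4 peaks, Cdx4 overlap was 57.2%, Sall4 overlap 55.8% and Cdx4 peaks in H3K27ac 29.8%. Without a Sall4 threshold, Cdx4 overlap was 59.3% and Cdx4 peaks in H3K4me3 7.32%. The overlap of Cdx4 and of Sall4 members was 48.4% and 37.7% at 50 bp or more, 78.3% and 61.6% for centres within 500 bp, and 69.7% and 57.6% for the better-scoring part of each list, where 36.3% of Cdx4 members were in H3K27ac. With H3K27ac domains over 500 bp only, 13.8% of Cdx4 and 8.55% of Sall4 members were in a domain, and the median per window was 0. Without the 10 densest windows, an alternative chosen after seeing the data, 3.43% of Cdx4 members were in H3K4me3. The cause of these shifts was not tested beyond what each setting does by its construction. No paired analysis was possible because each target had 1 library. Unknown depth and thresholds limit every count.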
